A study of Mus musculus with 4 samples.

Results

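The genes described here are 10 members of the Notch pathway, out of 50600 genes counted: the receptor genes Notch1, Notch2, Notch3 and Notch4, the receptor protease gene Adam10, the nuclear effector genes Rbpj and Maml1, and the target genes Hes1, Dtx1 and Nrarp. They were chosen by name, and all 10 were found by matching unversioned gene identifiers to GENCODE symbols. The study sequenced RNA from primary T cells of the C57BL/6NJ strain, and its 4 libraries form a single group of biological replicates. Headers of the count files describe them as activated Th0 cells at 16 h, Th0 meaning helper cells stimulated with no cytokine that steers their fate, and a protocol for differentiating CD4+ T cells is linked. The labels give no further treatment and no genotype, the age is listed as unknown and the sex as not collected, and the samples hold no unactivated or Notch-inhibited group. All 4 biosamples carry 1 donor identifier and are not said to come from separate animals, so p-values measure only the spread between these samples, part of which may be technical.

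Notch receptors are transmembrane proteins that are cut after they bind a ligand on a neighbouring cell, first by the metalloprotease ADAM10 and then by gamma-secretase within the membrane. The released intracellular domain enters the nucleus, binds the DNA-binding protein RBPJ and recruits a Mastermind coactivator such as MAML1, and target genes such as Hes1, Dtx1 and Nrarp are transcribed. In the T lineage the pathway is known for commitment of thymic progenitors, and in mature T cells receptor cleavage is known to follow stimulation of the T cell receptor.

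The libraries held 46192242 to 63313389 counted read pairs. All 6 T cell markers reached 1 TPM in every library, where TPM is the count divided by exonic length and rescaled so that libraries have equal sums. Cd4 lay at 710.0 to 781 TPM. Of the CD8 coreceptor genes, Cd8a lay at 0.225 to 1.06 TPM but Cd8b1 at 53.3 to 61.1 TPM. Replicates 1 and 2 stood apart from 3 and 4 in Xist, an RNA made from the inactive X chromosome of female cells, at 141, 116, 0.269 and 0.303 TPM. By this measure the libraries are not repeats of a single animal's cells, although they share a donor identifier, and how many animals gave them is not stated. The members' levels are given by library, in the order of replicates 1 to 4, and many of the other pathway genes by mean ± SD only. Markers of other cells summed to 2.56 to 9.43 TPM for 7 B cell genes, 0.0490 to 0.350 TPM for 7 dendritic cell and macrophage genes and 0 to 0.439 TPM for 5 stromal genes. Of 6 endothelial genes, Kdr, Tek, Emcn and Vwf had no count in any library, and Egfl7 alone reached 1 TPM in every library, at 6.06 to 7.87 TPM. In bulk RNA, fewer cells with a transcript and less of it per cell cannot be told apart.

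The sequences upstream of the receptor genes are shown first, because their transcripts lay at very different levels, with those of the target gene Nrarp and of Lfng, which encodes a glycosyltransferase of the receptors. Each is RefSeq sequence of GRCm38.p6 from 250 to 31 bases before the annotated start, a window of 220 bases in which the sequences shown hold no annotated exon. The Notch1 window lies inside the span that the files give the gene, because the RefSeq start is downstream of the outermost annotated one. In the first 5 sequences capitals mark CpG dinucleotides, and in that of Lfng they mark the RBPJ core motif TGGGAA or its reverse complement TTCCCA.
Notch1, chr2:26503853-26504072, minus strand: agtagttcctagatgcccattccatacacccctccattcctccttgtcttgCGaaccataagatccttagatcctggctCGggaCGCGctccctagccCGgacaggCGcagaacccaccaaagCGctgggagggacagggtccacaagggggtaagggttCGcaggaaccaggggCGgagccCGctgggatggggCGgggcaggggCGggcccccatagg
Notch2, chr3:98013288-98013507, plus strand: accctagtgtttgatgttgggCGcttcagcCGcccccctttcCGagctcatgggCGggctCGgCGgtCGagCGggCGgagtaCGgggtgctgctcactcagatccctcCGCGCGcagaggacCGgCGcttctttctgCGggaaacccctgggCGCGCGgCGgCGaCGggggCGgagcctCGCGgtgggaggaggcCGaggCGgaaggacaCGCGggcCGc
Notch3, chr17:32166921-32167140, minus strand: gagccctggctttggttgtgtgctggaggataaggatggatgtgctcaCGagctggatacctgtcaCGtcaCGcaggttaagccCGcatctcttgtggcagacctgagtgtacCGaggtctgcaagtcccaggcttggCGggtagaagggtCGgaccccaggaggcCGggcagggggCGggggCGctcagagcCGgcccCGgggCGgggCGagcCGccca
Notch4, chr17:34564045-34564264, plus strand: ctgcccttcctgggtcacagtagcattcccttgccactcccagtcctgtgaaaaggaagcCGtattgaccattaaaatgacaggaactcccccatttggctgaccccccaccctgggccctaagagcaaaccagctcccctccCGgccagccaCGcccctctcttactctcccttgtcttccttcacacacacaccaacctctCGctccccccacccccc
Nrarp, chr2:25180508-25180727, plus strand: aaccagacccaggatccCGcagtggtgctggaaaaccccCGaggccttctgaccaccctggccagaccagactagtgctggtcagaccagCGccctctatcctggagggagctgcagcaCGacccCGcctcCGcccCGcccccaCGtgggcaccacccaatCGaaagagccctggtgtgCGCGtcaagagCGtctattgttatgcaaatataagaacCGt
Lfng, chr5:140607091-140607310, plus strand: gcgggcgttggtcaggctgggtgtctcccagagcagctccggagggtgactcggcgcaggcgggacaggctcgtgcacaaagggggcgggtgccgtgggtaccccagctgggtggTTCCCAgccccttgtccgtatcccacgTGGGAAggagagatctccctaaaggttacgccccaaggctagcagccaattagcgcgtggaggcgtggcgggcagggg

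Among the receptor genes the Notch2 window held 30 CpGs, that of Notch3 15, that of Notch1 12 and that of Notch4 4, beside a median of 5 over all 32851 windows of the RefSeq table. The order of the CpG counts was not that of the transcripts, since Notch3 held more CpGs than Notch1 and was almost absent as RNA. Of the 9 members with an entry in that table, Rbpj alone had a match to the core motif. Its first window had 2 matches, and the 1 match of its second, overlapping window is the same site as 1 of these. The windows held 102 and 220 bases of annotated exons. On either strand TGGGAA occurred in 19.4% of all windows. Lfng had 2 matches, starting 135 and 108 bases before the start, and 1 of them extended to GTGGGAA. This longer motif contains the shorter one and occurred in 4.75% of all windows. Hes5, at 0.298 to 1.44 TPM, also had 2 matches, and both extended to GTGGGAA, in a window with 123 bases of annotated exon. The windows of Hes6 and Jag2 had no match. A match is a description of these letters and not a measured binding site.

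Of the 10 members 7 reached 1 TPM in every library, against 45.2% of nuclear protein-coding genes and 22.1% of all genes. Adam10 was the most abundant, Notch1 and Notch2 were both well expressed, and the nuclear effectors and Dtx1 lay between 9.53 and 32.0 TPM. Nrarp lay between 1.10 and 3.33 TPM, and Hes1, Notch3 and Notch4 lay below 1 TPM in every library. The plot of member levels by library shows this gap of more than 2 orders of magnitude between the receptor genes.

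**Figure D1:**
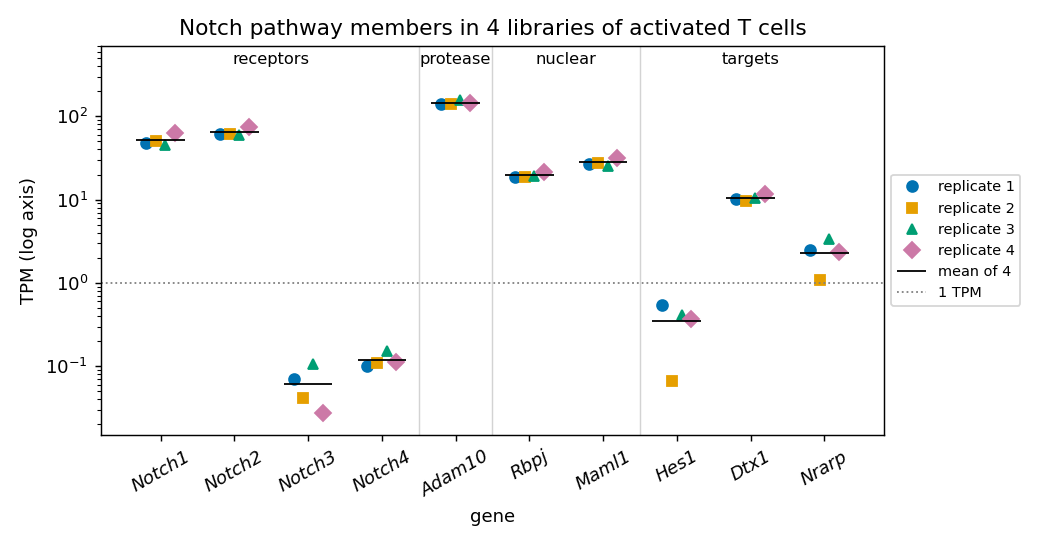
Level of each member in TPM (log axis) in the 4 libraries, grouped by role; black bars are means and the dotted line marks 1 TPM. Notch1 and Notch2 sit at 45.3 TPM or more in each library, and Notch3 and Notch4 at 0.151 TPM or less.

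Notch2, the receptor also known for its part in B cell and dendritic cell development, is encoded on chromosome 3, 98013527 to 98150361 (ENSMUSG00000027878.11, mm10). It lay at 61.6, 60.7, 60.1 and 74.1 TPM, a mean of 64.1 ± 6.68 (SD, n = 4), which exceeded 69.2% of the 9840 detected nuclear protein-coding genes. Replicate 4 was the highest and the other libraries lay between 60.1 and 61.6 TPM. The B cell markers summed to 9.43, 6.44, 6.78 and 2.56 TPM in replicates 1 to 4, and the part of B cell RNA in the level of Notch2 was not tested. A stretch of 5.02% of Notch2's exonic bases is shared on the same strand with the gene Gm42820, and read pairs there may be missing from its count.

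Notch1, the receptor required for T cell commitment, is encoded on chromosome 2, 26457903 to 26516663 (ENSMUSG00000026923.15). Its libraries lay at 47.3, 50.2, 45.3 and 62.6 TPM, a mean of 51.3 ± 7.77. Replicate 4 was again the highest. On this scale Notch1 was below Notch2 in 4 of 4 libraries, with a log2(TPM + 1) difference of -0.32 ± 0.08. An exact permutation test that flips the sign of each library's difference gave a two-sided p of 0.125, before and after adjustment over the 10 gene pairs compared, and no smaller value is possible with 4 libraries.

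The order of Notch1 and Notch2 depended on the length by which counts were divided. The exonic length in the files is 14232 bases for Notch1, whereas the longest principal transcript of GENCODE M21 has 9488, and for Notch2 the values are 10782 and 10500 bases. With transcript lengths, an alternative chosen after the data were seen, Notch1 lay at 53.1 ± 8.13 TPM and Notch2 at 45.4 ± 4.80 TPM, and the log2 difference became 0.21 with Notch1 higher in each library. With no length at all, Notch1 lay at 217 ± 29.5 CPM and Notch2 at 206 ± 17.9 CPM (counts scaled to equal library totals), a log2 difference of 0.07 (exact sign-flip permutation p = 0.25). Which of the pair is the more abundant receptor transcript was therefore not settled by these counts.

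**Figure D2:**
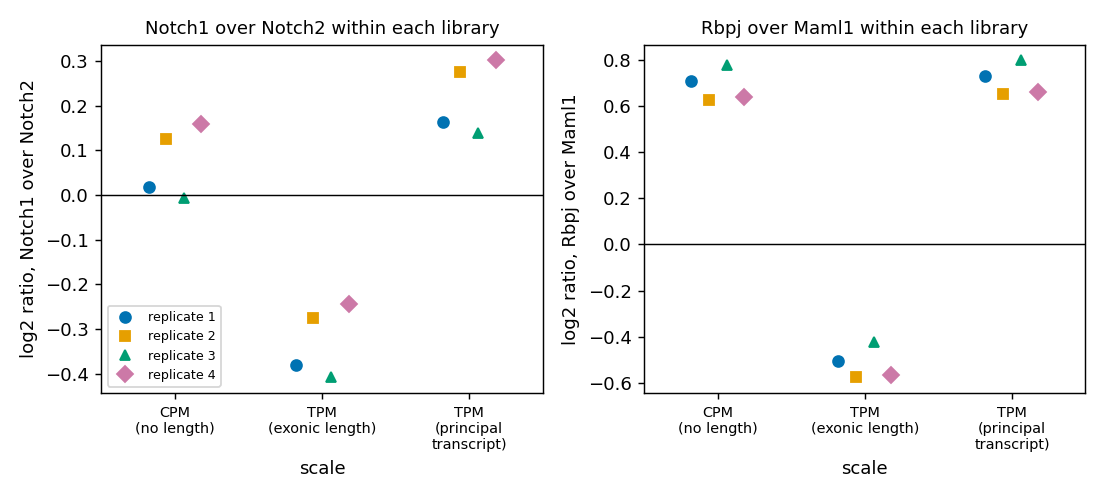
Log2 ratio of Notch1 to Notch2 (left) and of Rbpj to Maml1 (right) within each library, on 3 scales: CPM with no length, TPM with the exonic length of the files and TPM with the principal transcript length. Both ratios lie below 0 in every library with exonic length and above 0 with transcript length.

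Notch4, a receptor known mainly from endothelium, is encoded on chromosome 17, 34564268 to 34588503 (ENSMUSG00000015468.14). It was represented by 13, 13, 23 and 12 read pairs, or 0.10, 0.109, 0.151 and 0.111 TPM. Notch3, a receptor of smooth muscle and of developing thymocytes, is encoded on chromosome 17, 32120820 to 32166880 (ENSMUSG00000038146.7), and had 9, 5, 16 and 3 read pairs, or 0.0694, 0.0420, 0.105 and 0.0278 TPM. The exact 95% Poisson intervals, which cover counting error only, overlapped between both genes in each library: in replicate 4, for example, that of Notch3 ran from 0.00573 to 0.0812 TPM and that of Notch4 from 0.0573 to 0.194 TPM. The log2(TPM + 1) level of Notch2 exceeded that of Notch3 by 5.93 ± 0.18, in 4 of 4 libraries; with a pseudocount of 0.1 the difference was 8.66, since Notch3 is near 0. Of the summed TPM of the 4 receptor genes, Notch2 held 55.6 ± 1.35%, Notch1 44.3 ± 1.41%, Notch4 0.104 ± 0.0274% and Notch3 0.0554 ± 0.0346%; with transcript lengths the first 2 shares became 46.1% and 53.7%.

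Adam10, which encodes the metalloprotease that makes the first ligand-dependent cut, lies on chromosome 9, 70678997 to 70780229 (ENSMUSG00000054693.14). It lay at 142, 141, 155 and 145 TPM, a mean of 146 ± 6.45 that exceeded 86.3% of detected nuclear protein-coding genes. Its coefficient of variation over the libraries, 4.42%, was the smallest of the 10 members. Adam17, the related sheddase gene, lay at 39.1 ± 1.26 TPM, and the log2(TPM + 1) level of Adam10 was higher by 1.87 ± 0.08, in 4 of 4 libraries. Adam10 also lay above Notch1, by 1.5 ± 0.23 on that scale, although in CPM the log2 difference was -0.02 (exact sign-flip permutation p = 0.875).

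The nuclear effectors lay below Notch1 and Notch2 and above Notch3 and Notch4 in TPM. Maml1, the Mastermind coactivator gene (chromosome 11, 50255634 to 50292311, ENSMUSG00000050567.16), lay at 26.8, 27.6, 25.5 and 32.0 TPM, a mean of 28.0 ± 2.81. Rbpj, the DNA-binding partner (chromosome 5, 53466152 to 53657362, ENSMUSG00000039191.12), lay at 18.9, 18.5, 19.0 and 21.6 TPM, a mean of 19.5 ± 1.41. Replicate 4 was the highest library for both genes, and their ranges did not overlap. With exonic length Rbpj lay below Maml1 by -0.50 ± 0.07 on the log2(TPM + 1) scale, and with transcript length it lay above by 0.68, because the files give Rbpj 12750 exonic bases against 5440 in its principal transcript. Rbpj has processed pseudogenes, of which Rbpj-ps3 took 64, 54, 66 and 39 read pairs and Rbpj-ps1 at most 1, so the level of Rbpj is uncertain for reads that map to more than 1 copy.

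The 3 target genes differed widely. Dtx1, a ubiquitin ligase gene of the Deltex family (chromosome 5, 120680202 to 120711927, ENSMUSG00000029603.15), lay at 10.3, 9.53, 10.5 and 11.6 TPM, a mean of 10.5 ± 0.849. Nrarp, an ankyrin repeat protein that limits Notch signalling (chromosome 2, 25180758 to 25183339, ENSMUSG00000078202.3), lay at 2.5, 1.10, 3.33 and 2.34 TPM, from 104, 42, 162 and 81 read pairs. Hes1, the classical transcriptional repressor downstream of Notch (chromosome 16, 30064384 to 30067796, ENSMUSG00000022528.7), had only 18, 2, 16 and 10 read pairs, or 0.548, 0.0664, 0.417 and 0.366 TPM. Dtx1 exceeded Nrarp by 1.84 ± 0.39 and Hes1 lay below Dtx1 by -3.10 ± 0.19 and below Nrarp by -1.26 ± 0.27 on the log2(TPM + 1) scale, each in 4 of 4 libraries (exact sign-flip permutation p = 0.125 for each pair). With a pseudocount of 0.1 the differences of Hes1 from Dtx1 and Nrarp were -4.72 and -2.49. Dtx1 is also expressed in B cells, whose markers summed to 9.43, 6.44, 6.78 and 2.56 TPM in replicates 1 to 4; the part of B cell RNA in the level of Dtx1 was not tested.

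All 3 targets were lowest in replicate 2. For Nrarp the exact Poisson interval in replicate 2, which covers counting error only, was 0.793 to 1.49 TPM, below the interval of each other library, the nearest being 1.86 to 2.90 TPM in replicate 4. Against the spread between samples, Nrarp did not pass (edgeR adjusted p = 0.950). For Hes1 the interval in replicate 2 was 0.00804 to 0.240 TPM, below that of replicate 1, which ran from 0.325 to 0.867 TPM, and overlapping those of replicates 3 and 4. Dtx1 differed by a factor of 1.22 between its lowest and highest library. Of the 7 detected members 4 were lowest in replicate 2, against 31.4% of all genes detected in every library. Of the 7 other known T-lineage targets that were detected, 0 were lowest in replicate 2.

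In the order of mean TPM the members ran Adam10, Notch2, Notch1, Maml1, Rbpj, Dtx1, Nrarp, Hes1, Notch4 and Notch3. From Notch1 down to Hes1, and between Adam10 and Notch2, neighbours had ranges over libraries that did not overlap. The ranges of Notch2 and Notch1 overlapped, as did those of Hes1 and Notch4 and of Notch4 and Notch3, and Hes1 lay above Notch4 in 3 of 4 libraries. With transcript lengths Notch1 and Rbpj moved above Notch2 and Maml1 respectively, while the places of the other 6 members were kept. In CPM, with no length, the order ran Notch1, Adam10, Notch2, Rbpj, Maml1, Dtx1, Nrarp, Notch4, Hes1 and Notch3. Hes1 and Notch4 thus also changed places on that scale.

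No member varied between replicates past the threshold used. Each gene's residual spread was set against that of all genes by edgeR's quasi-likelihood fit with Benjamini-Hochberg adjustment; 8 members had enough counts to be tested, and 0 passed an adjusted p of 0.05, against 0.228% of the 12285 genes tested. With no adjustment 1 member, Notch1, lay under 0.05 (edgeR adjusted p = 0.331), against 5.42% of all genes. Notch2 and Nrarp had edgeR adjusted p = 0.921 and 0.950. DESeq2 marked 0 members as dispersion outliers, against 0.554% of all genes. The median SD of log2 CPM was 0.123 over the 7 tested members whose mean reached 1 TPM and 0.0949 over the 11366 such genes. When every gene with a count was tested in place of those past a count minimum, Notch1 passed (edgeR adjusted p = 0.0161), and over all alternatives its adjusted p ran from 0.0161 to 0.987.

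**Figure D3:**
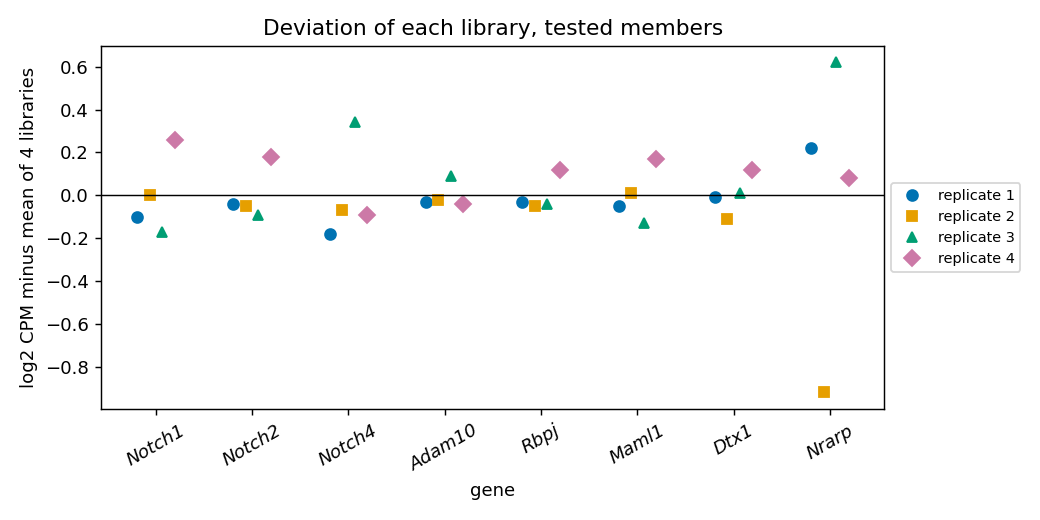
Deviation of log2 CPM in each library from the mean of the 4 libraries for the 8 tested members. Replicate 4 is the highest for Notch1 (0.26), Notch2 (0.18), Maml1 (0.17), Rbpj (0.12) and Dtx1 (0.12), and replicate 2 is lowest for Nrarp (-0.92).

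Notch1, Notch2, Maml1, Rbpj and Dtx1 were all highest in replicate 4, which makes 5 of the 7 detected members, against 40.0% of all detected genes in TPM and 29.5% in CPM. Long genes as a whole lay higher in that library: when the tested genes averaging at least 1 TPM were put in 5 bins by length, the median deviation of replicate 4 was 0.06 in the longest bin (6754 exonic bases or more) and -0.05 in the shortest (1865 or fewer). Replicate 4 was the highest library for 54.1% of the longest bin, and for 64.8% of the 560 genes of that bin in the upper 2 of 5 bins of GC content. Notch1 stood at 0.26 and Notch2 at 0.18 in replicate 4. With a trend in length and GC removed from each library, an alternative chosen after the data were seen, these became 0.15 and 0.10, and the edgeR adjusted p of Notch1 became 0.987. The part of length in the residual deviations was not tested further.

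**Figure D4:**
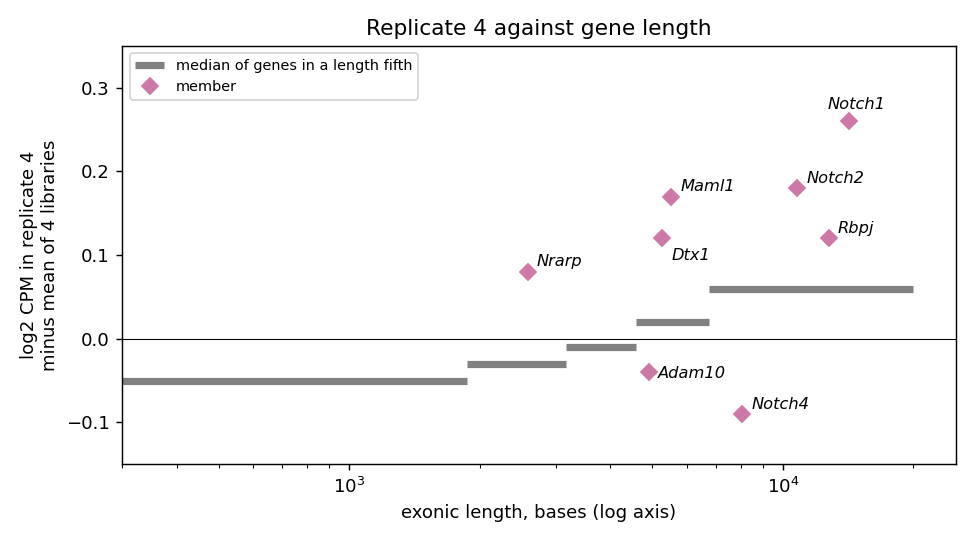
Deviation of log2 CPM in replicate 4 from the mean of 4 libraries against exonic length in bases (log axis) for the 8 tested members (diamonds), with the median of tested genes in each of 5 bins of length (bars, drawn only within the axis). The bars run from -0.05 to 0.06, and Notch1, Notch2, Maml1, Rbpj, Dtx1 and Nrarp lie above the bar at their length.

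The other genes of the pathway were taken from a list of 67 in 8 roles. In every library 46 of the 67 reached 1 TPM, against 45.2% of nuclear protein-coding genes. The same share stands beside the counts of detected genes by role below. The median was 25.6 TPM over the list, and 7 genes had no count in any library. Of 51 tested, 0 passed the edgeR spread test, against 0.228% of all genes tested, and 7 had an unadjusted p under 0.05, against 5.42%. DESeq2 marked 2, Crebbp and Cdkn1a, against 0.554% of all genes. Cdkn1a, a cell cycle inhibitor gene named after its values were seen, lay at 69.2, 72.1, 72.1 and 110.5 TPM (edgeR adjusted p = 0.0632). It passed without replicate 2 (adjusted p = 0.0362) and with the length and GC trend removed (adjusted p = 0.0234), and over all alternatives its edgeR adjusted p ran from 3.24e-06 to 0.998, the latter without replicate 4.

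Of the ligand genes only Jag2 and Dlk2 had more than 5 read pairs in any library. Jag2, which encodes a Serrate-type ligand, lay at 2.13, 1.80, 2.63 and 1.84 TPM. It was the only one of 7 ligand genes at 1 TPM in every library. With principal transcript lengths it lay at 0.985 TPM in replicate 2, so that no ligand gene met this floor. That transcript has 5106 bases, more than the 4054 exonic bases over which Jag2 was counted. That scale is also lower at equal length: Nrarp, with 2582 bases on both scales, went from a mean of 2.32 to 1.60 TPM. Dlk2, an atypical ligand gene, lay at 1.91, 0.736, 2.28 and 0.705 TPM. Dll4 had at most 5 read pairs in a library, Dlk1 also at most 5, Jag1 at most 4 and Dll3 at most 1. Dll1 had none; the limit set here for a count of 0 is 3 counts, or 0.0474 to 0.0649 CPM depending on the library's total, and the exact two-sided Poisson interval of a 0 reaches 3.69 counts.

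Of 9 genes for receptor proteases and gamma-secretase 7 were detected in every library, against 45.2% of nuclear protein-coding genes. Furin, the convertase that cuts the receptor precursor, lay at 91.0 ± 5.67 TPM. Among gamma-secretase subunits, nicastrin (Ncstn) lay at 82.3 ± 2.23 TPM, with Psenen at 62.8 ± 2.30, Psen2 at 38.9 ± 2.08 and Aph1a at 37.9 ± 1.4 TPM. The paralogues Aph1b and Aph1c were below 1 TPM, at 0.252 ± 0.0351 and 0.0754 ± 0.00869 TPM; they are close copies of each other, so reads could be lost between them.

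All 5 receptor glycosyltransferase genes were detected. The Fringe genes, whose enzymes extend O-fucose on the receptors and alter their choice of ligand, were led by Lfng at 189.7, 203, 206 and 190.5 TPM. Mfng followed at 132 ± 5.07 TPM and Poglut1, which adds O-glucose, at 39.9 ± 2.24 TPM.

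Of 13 trafficking and ubiquitin ligase genes 9 were detected, led by Dtx3 at 49.4 ± 1.33 TPM, Numb, an inhibitor of the receptors, at 28.7 ± 1.73 TPM and Itch, a ubiquitin ligase gene, at 27.5 ± 1.98 TPM. All 7 coactivator genes were detected, with Snw1 at 193 ± 5.55 TPM, the acetyltransferase gene Kat2a at 161 ± 6.57 TPM and Crebbp at 31.4 ± 5.30 TPM. Of 10 corepressor genes 9 were detected, led by Ctbp1 at 231 ± 6.09 TPM and the histone deacetylase genes Hdac1 and Hdac2 at 127 ± 4.39 and 113 ± 3.03 TPM. Rbpjl, the tissue-restricted relative of Rbpj, had no count.

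**Figure D5:**
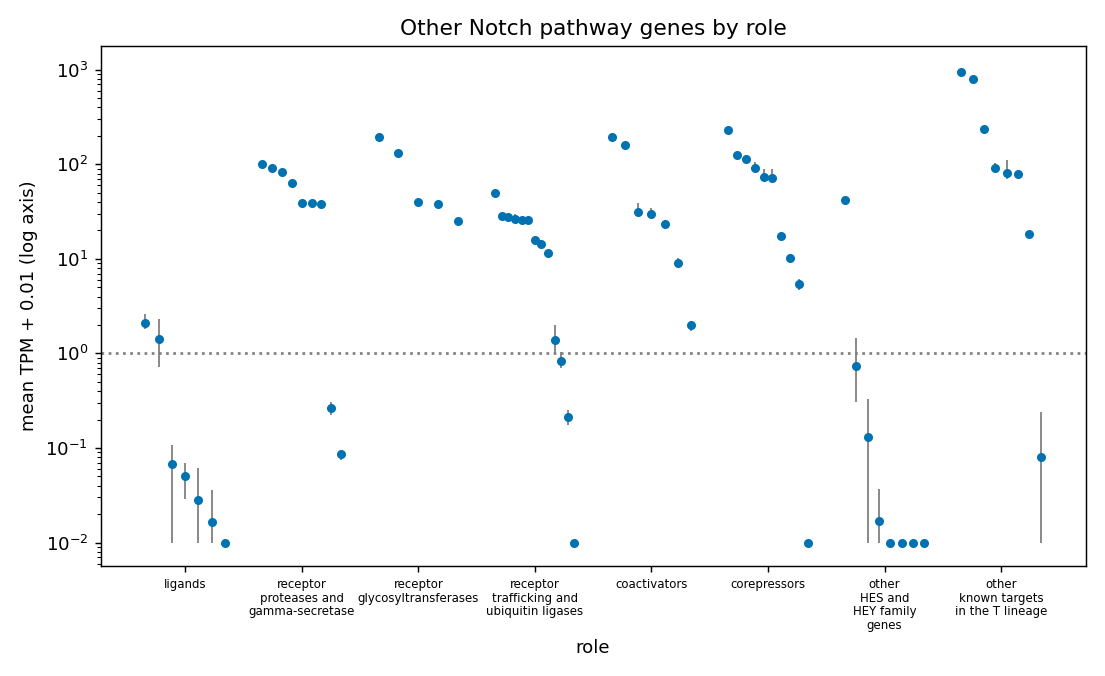
Mean TPM + 0.01 (log axis) of the 67 other pathway genes by role, with vertical lines from the lowest to the highest library; the dotted line marks 1 TPM. Proteases, glycosyltransferases, coactivators and corepressors lie mostly above the line, and 1 of 7 ligand genes and 1 of 8 HES and HEY genes do so in every library.

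Among the HES and HEY repressors, Hes6 was the only one of 8 other genes detected in every library, at 39.8, 44.2, 45.6 and 37.8 TPM. Hes6 is known as a family member that opposes Hes1. Hes5 lay at 0.683, 0.298, 1.44 and 0.492 TPM, Hey1 reached at most 0.319 TPM, and Hey2 had 2 read pairs in 1 library. Hes2, Hes3, Hes7 and Heyl had no count in any library.

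Of 8 genes known as Notch targets in the T lineage 7 were detected. Myc, Tcf7 and Il2ra led them at 939.7 ± 51.1, 809 ± 31.5 and 239 ± 13.9 TPM; these genes also have many other inputs. Ptcra, a target gene of immature thymocytes, had at most 4 read pairs in a library. The immature thymocyte marker Rag2 had no count, and Cd1d1 alone of 5 such markers reached 1 TPM in every library.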

How the data were processed

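RNA-seq counts of 4 libraries in 1 group were used. For every gene the authors deposited an unnormalized count of read pairs and an exonic length. Per the file headers, featureCounts (1.4.6-p4) counted STAR alignments over exons of GENCODE M13, summed by gene, and took only pairs with both mates aligned, on the reverse strand (setting 2). The sources used here do not give STAR's version. The build is mm10 per the labels. They call the libraries total RNA but link a polyA+ protocol, and which applies was not settled. Symbols came from GENCODE M21, which matched 50376 of 50600 identifiers. Counts divided by exonic length gave TPM. Detected means at least 1 TPM in each library.

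The spread test used edgeR 4.0.16 (R 4.3.3) on counts as deposited (TMM scaling, filterByExpr, intercept-only robust quasi-likelihood fit). The upper tail of F compared each gene's residual quasi-dispersion (3 degrees of freedom) with the trended prior (13.9). DESeq2 1.42.0 gave size factors and dispersion outliers. The spread test was checked on simulated counts of 12128 genes in 4 libraries. It called 79 of 100 genes with an added log2 SD of 0.5, 98 of 100 with 1, and 5 of 11928 others. In each altered gene the added deviations were scaled to have exactly that SD over the 4 libraries. The shares therefore do not cover deviations drawn at random with that SD, which can spread less in 4 libraries. The altered genes were drawn only from those with a mean of at least 100 counts. Nrarp and Notch4 had lower means, so these shares do not cover them. Differences within libraries used log2(TPM + 1) and exact sign-flip permutation. Libraries held 46192242 to 63313389 read pairs, and counts under 200 have exact Poisson intervals at 95% confidence. Alternatives covered floors, pseudocounts, lengths, scaling, filters, the prior, DESeq2, a length and GC trend (splines with 4 degrees of freedom) and each replicate left out.

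The members, pathway list and pairs were chosen with earlier results of these data known. By rule the text names all members, the 3 highest genes of each role, all ligands and HES and HEY genes and Adam17; other pathway genes (Psen2, Psenen, Aph1a, Aph1b, Aph1c, Rbpjl, Ptcra, Cdkn1a and Spen) were named after their values were seen, and some results for single pathway genes are not reported here. Genes like a member in pattern over libraries were to be named only for a member past the spread threshold, so none are.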

Additional observations from a re-analysis of the deposited data

Results flagged for a closer look

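Of 39 members and named pathway genes with a count, 5 had 1 library set apart from the other 3. The gap was large for the range of 4 values, by a rule that nominally flags about 1 in 20 genes by chance. The share of all detected genes that this rule flags was not computed, so the counts here have no such share beside them. Replicate 4 was the highest library for 40.0% of all detected genes in TPM. Dll3 and Hey2 were counted in 1 library only, so their gap equals the range by construction; without them 3 of 37 genes were set apart, all highest in replicate 4. Notch2 lay at 74.1 TPM in replicate 4 against 60.1 to 61.6 TPM in the others. Rbpj lay at 21.6 TPM there against 18.5 to 19.0 TPM, and the coactivator gene Crebbp at 39.4 TPM against 28.6 to 29.0 TPM. Long genes as a whole lay higher in replicate 4, by a median of 0.06 log2 CPM in the longest of 5 bins by length, and with a length and GC trend removed the deviations of Notch2, Rbpj and Crebbp in that library went from 0.18, 0.12 and 0.31 to 0.10, 0.05 and 0.22. Dll3 lay at 0.0261 TPM in replicate 4 from 1 read pair, and Hey2 at 0.0270 TPM in replicate 1 from 2 read pairs; both had no count in the other libraries.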

How the results depend on the processing

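The order of 3 of the 10 gene pairs tested depended on length. In CPM the log2 difference of Notch1 minus Notch2 was 0.07 in place of -0.32, that of Rbpj minus Maml1 0.68 in place of -0.50, and that of Adam10 minus Notch1 -0.02 in place of 1.5; with principal transcript lengths the first 2 were 0.21 and 0.68. The lengths used are the only change in these alternatives. The receptor shares in CPM were 51.2% for Notch1, 48.7% for Notch2 and 0.0679% for Notch4, and with transcript lengths 53.7% for Notch1 and 46.1% for Notch2. The direction of the other 7 pairs was kept under each alternative, as was that of all 10 with a replicate left out. The size depended on the pseudocount for genes near 0: at 0.1 in place of 1, Notch2 minus Notch3 was 8.66 in place of 5.93, Notch3 minus Notch4 -0.45 in place of -0.08, Dtx1 minus Nrarp 2.22 in place of 1.84, Hes1 minus Dtx1 -4.72 in place of -3.10 and Hes1 minus Nrarp -2.49 in place of -1.26.

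Detected members were 6 at a floor of 5 TPM and 6 with transcript lengths (without Nrarp in each case), and 7 otherwise. Nrarp has 2582 bases on both scales, so its move from a mean of 2.32 to 1.60 TPM reflects the lengths of the other genes. With every gene with a count tested, 1 member (Notch1), 4 pathway genes (among them Crebbp, Cdkn1a and Spen) and 142 of all genes passed the spread test, against 0, 0 and 28. DESeq2 marked 2 pathway genes and 68 of all genes. With the length and GC trend removed 1 pathway gene passed (Cdkn1a). The prior without robust estimation gave 15 of all genes. With a replicate left out, 0 members passed in each case, 0 to 1 pathway genes passed (1 without replicate 2), and 14 to 27 of all genes (14 without replicate 3). The causes of these shifts in the spread test were not tested. No paired analysis was possible because the series has a single group. Depth limits Hes1, Notch3 and Notch4, which had at most 23 read pairs in a library.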
